A study of Mus musculus with 8 samples.

Results

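Integrins are cell surface receptors made of an alpha and a beta chain, and laminins are secreted trimers of an alpha, a beta and a gamma chain. The genes of these chains were followed here in 4T1 cells, a mouse mammary carcinoma line. The members were the rows of the expression table whose symbol names an integrin alpha chain, an integrin beta chain or a laminin alpha, beta or gamma chain. The 36 reported here, of 24787 rows, were 18 integrin alpha, 8 integrin beta, 5 laminin alpha, 3 laminin beta and 2 laminin gamma genes. The rule reads only the symbols.

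RNA was sequenced in 8 libraries of cultured 4T1 cells. Of these, 4 carried a control shRNA, in cells whose genotype is labelled WT, and 4 carried an shRNA against Etv5, labelled Etv5 knockdown. Etv5 encodes an ETS-family transcription factor. Each group appears to hold a single hairpin construct, going by the library names, and no label says whether the replicates were separate cultures. The p-values below therefore measure the spread between these libraries, which may be technical. The unit is a coverage value, read here as the average read coverage over a gene's bases after scaling to library depth. That reading comes from the values, as the sources used here do not give the averaging. Comparing levels of different genes per base rests on it. No depth in reads is known, and intervals for counting error are therefore left out. In bulk RNA, fewer cells of a type and less RNA per cell cannot be told apart.

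Each integrin pairs 1 alpha with 1 beta chain, and the pair sets which matrix or cell surface ligand is bound. The beta 1 chain pairs with many alpha chains, among them the laminin-binding alpha 3, 6 and 7, the collagen-binding alpha 1 and 2 and the fibronectin-binding alpha 5. The beta 4 chain pairs with alpha 6 in hemidesmosomes, the epithelial anchors to the basement membrane, and the beta 2 chain pairs with leukocyte alpha chains. Lama3 and Lamb3 encode chains of the laminin of epithelial anchoring, while Lamc1 is the gamma chain of most other laminins. Basement membrane laminins lie between mammary epithelium and stroma.

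Libraries differed in ways the groups do not explain. Coverage values summed to between 254792 and 390495 per library. The highest sum belonged to replicate 3 of the Etv5 shRNA group, which also had the fewest genes above 0, at 13920 against 15126 to 15379 in the controls and 15133 to 15250 in the other Etv5 shRNA libraries. In the 25% of tested genes with the longest transcripts, this library lay at a median of -1.04 on the log2(value + 1) scale relative to the median library. Replicate 3 of the controls lay at -0.28 in the same genes, and the other 6 libraries between -0.02 and 0.08. Integrin and laminin transcripts are long, so each comparison is given over 8 libraries and again without Etv5 shRNA replicate 3. Etv5 itself, the targeted gene, was at 15.2, 15.1, 11.7 and 14.4 in control replicates 1 to 4 and at 13.04, 11.2, 7.52 and 12.7 in Etv5 shRNA replicates 1 to 4. The groups overlapped through control replicate 3 alone, as every Etv5 shRNA library was below control replicates 1, 2 and 4. Etv5 did not pass the test over 8 libraries (adjusted p 0.819 by limma) or without Etv5 shRNA replicate 3 (0.422).

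Among tumour cell markers, all 6 epithelial genes looked at (Epcam, Cdh1, Krt8, Krt18, Krt19 and Cldn7) were expressed. They summed to 1099 to 1509 in control libraries and to 1082 to 2607 in Etv5 shRNA libraries. The sum of 2607 was that of Etv5 shRNA replicate 3, where Krt18 was at 1534, against 545 to 646 in replicates 1, 2 and 4. The 5 myoepithelial markers summed to 9.88 to 12.9 in control libraries and to 13.05 to 29.5 in Etv5 shRNA libraries. Nearly all of this came from Krt14, which was highest in Etv5 shRNA replicate 3, while Krt5 and Trp63 stayed under 0.03 in every library. Krt14 did not pass the test over 8 libraries (adjusted p 0.564 by limma) or without Etv5 shRNA replicate 3 (0.114). The 4 endothelial markers together reached at most 0.125.

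Of the 36 members, 21 reached a coverage value of 0.5 in at least 4 libraries and were tested. They were 8 integrin alpha, 7 integrin beta, 2 laminin alpha, 3 laminin beta genes and 1 laminin gamma gene. The other 15 stayed low: Itga2b reached 0.796 and Itga10 0.319, and the remaining 13 stayed under 0.1 in every library. Itga4 was listed at 0 in all 8.

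**Figure D1:**
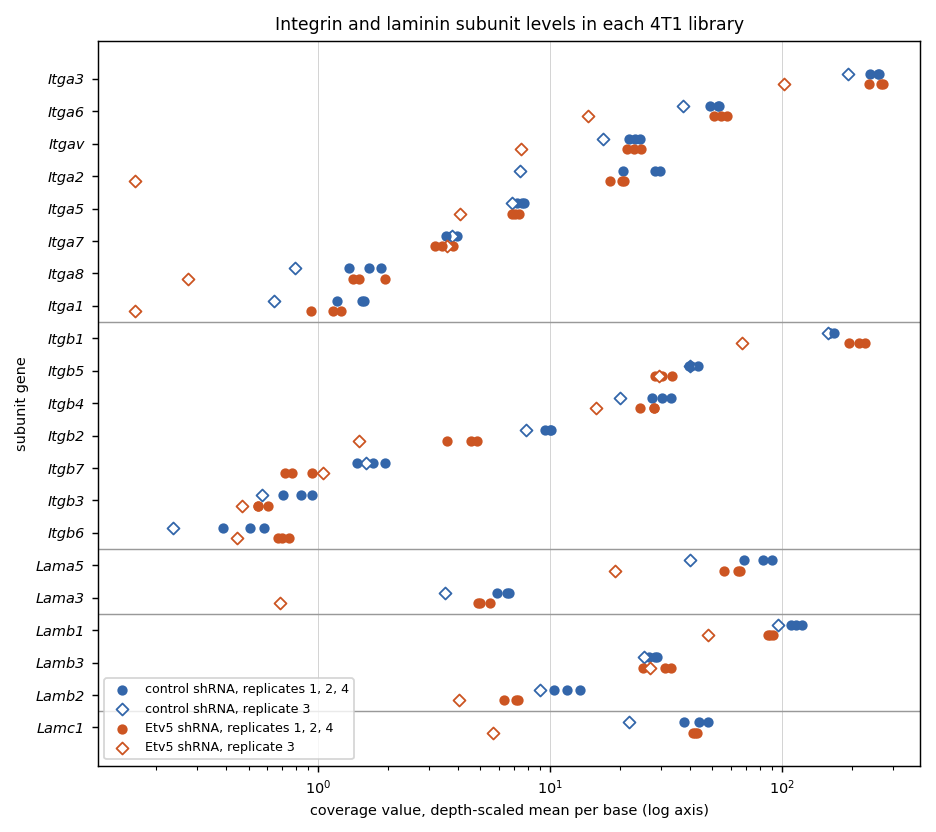
Coverage value of each of the 21 tested subunit genes (rows, grouped by chain family) in each library, on a log axis; blue marks the control shRNA, orange the Etv5 shRNA, and open diamonds replicate 3 of each group. Itga3 and Itgb1 were the most abundant receptor chains, and the open orange diamond is the lowest of the 8 values in 16 of the 21 rows.

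The most abundant integrin alpha chain in 4T1 cells was Itga3, the alpha 3 chain of a laminin receptor. Its coverage value was 258, 240, 192 and 262 in control replicates 1 to 4, and 267, 236, 102 and 272 in Etv5 shRNA replicates 1 to 4. It made up between 68.0% and 76.5% of the summed alpha chain values in a library. Itga6, the other main laminin-binding alpha chain, was at 53.7, 48.9, 37.3 and 52.7 in the controls and 57.7, 54.7, 14.6 and 51.0 with the Etv5 shRNA. Together these laminin-binding chains held between 81.9% and 87.4% of the alpha chain values. In both genes the groups overlapped, and the lowest value in each group was that of replicate 3.

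Below them came Itgav, the alpha chain of RGD-binding integrins, at 21.6 ± 3.31 (SD, n = 4) in the controls, and Itga2, a collagen receptor chain, at 21.6 ± 10.2. Their control ranges overlapped (16.8 to 24.4 and 7.43 to 29.7), so their order is not resolved. Itga5, the fibronectin receptor chain, was at 7.32 ± 0.393 and the laminin receptor chain Itga7 at 3.75 ± 0.157, with no overlap between them or with the genes above, apart from Itga2 replicate 3. Itga8 and Itga1, at 1.42 ± 0.467 and 1.24 ± 0.433 (SD, n = 4), overlapped each other. Itga10 and Itga2b were lower still, and the leukocyte chains Itgal, Itgam, Itgax and Itgad summed to at most 0.0947 in any library.

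Among beta chains, Itgb1 led with 161 ± 4.96 (SD, n = 4) in the controls, followed by Itgb5 at 40.9 ± 1.73, Itgb4 at 27.8 ± 5.64 and Itgb2 at 9.37 ± 1.03. The control ranges of these 4 genes did not overlap. Itgb7, Itgb3 and Itgb6 were at 1.68 ± 0.203, 0.763 ± 0.161 and 0.428 ± 0.152, of which Itgb3 and Itgb6 overlapped. Itgb8 stayed at or under 0.0524. Itgb4, the hemidesmosome chain, was present in every library, with a control range of 20.03 to 33.1 and an Etv5 shRNA range of 15.7 to 27.96. Its partner Itga6 was between 1.62 and 1.86 times as high per base in controls, between 1.82 and 2.24 times in Etv5 shRNA replicates 1, 2 and 4, and 0.928 times in replicate 3.

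For laminins, the line expressed the alpha chains Lama5 (70.3 ± 22.2, SD, n = 4, in controls) and Lama3 (5.64 ± 1.45), and Lama1, Lama2 and Lama4 stayed under 0.08. Lama5 is the alpha chain of broadly expressed epithelial laminins. The beta chains in falling order were Lamb1 (111 ± 11.04), Lamb3 (27.3 ± 1.53) and Lamb2 (11.2 ± 1.93), with control ranges that did not overlap. The gamma chain Lamc1 was at 37.7 ± 11.4, and Lamc3 reached 0.0403. Lamb3 was between 4.33 and 7.23 times as high per base as Lama3 in the controls. In Etv5 shRNA replicate 3 Lamb3 stood 39.5 times as high as Lama3, which has the longer transcript (10548 against 4867 bases).

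Over all 8 libraries none of the members passed the test. Limma called 0 of 21 with Benjamini-Hochberg adjustment over 11731 genes, and 5 of the 21 had an unadjusted p under 0.05. Over all tested genes 58 were called, which is 0.494%, and 832 (7.09%) had an unadjusted p under 0.05. Adjusted p-values of the members ran from 0.131 for Itgb7 and 0.147 for Itgb2 to 0.986 for Itgb1. The median log2 fold change of the 21 was -0.27 on the log2(value + 1) scale, against -0.11 for all tested genes. In 5 members the libraries of the groups did not overlap, all lower with the Etv5 shRNA: Itgb2, Itgb5, Itgb7, Lamb1 and Lamb2. The same held, in either direction, for 9.1% of all tested genes, and for 7.58% toward lower values.

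Without Etv5 shRNA replicate 3, limma called 4 of the 21 members, all lower: Itgb2, Itgb7, Itgb5 and Lamb2. That library was left out because an earlier look at these data had found it to stand apart. Of all 11731 genes, 3.14% were then called, 2.05% lower and 1.08% higher. Among the called members, Itgb7, Itgb2 and Itgb5 have the shortest transcripts of the 21 tested (2683, 2970 and 3282 bases). Lamb2 has 5629 bases. Whether transcript length bears on which members were called was not tested. The median log2 fold change of the members was -0.04, against 0.00 for all genes. Groups did not overlap in 7 members, 5 lower and 2 higher (Itgb1 and Itgb6), as in 20.2% of all tested genes (10.4% lower and 9.76% higher). None of the 8 tested alpha integrin genes was called, and the 95% interval of the log2 fold change lay within 0.5 in either direction for each of them but Itga2 (-0.82 to 0.89). With control replicate 3 left out as well, a setting added after the data were seen, the log2 fold change of Itga2 was -0.38 (adjusted p 0.0857 by limma).

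**Figure D2:**
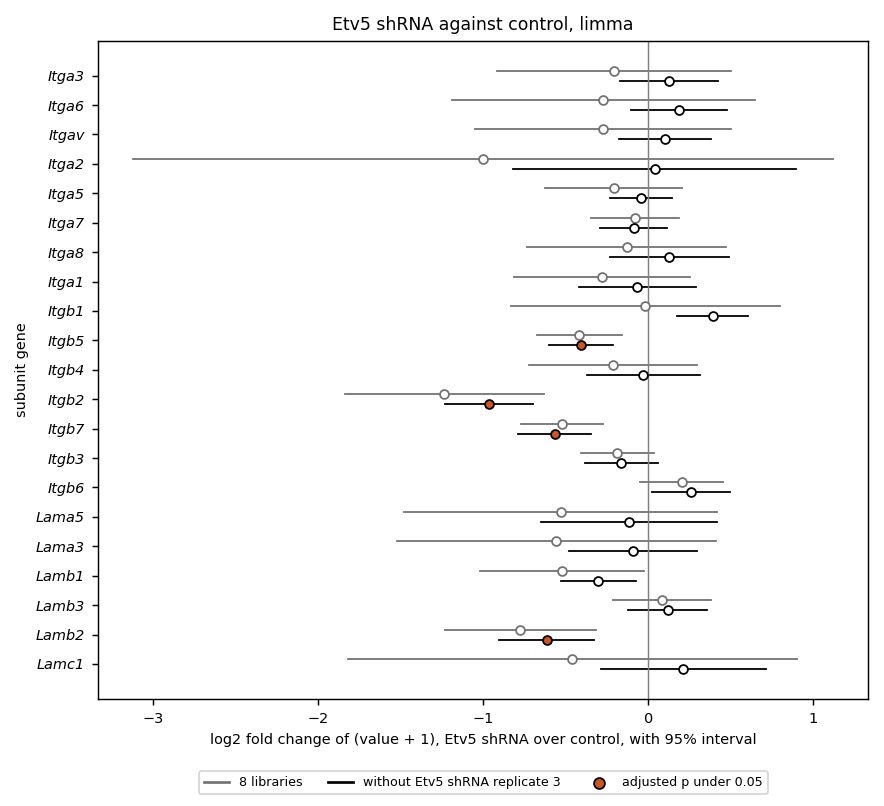
Log2 fold change of (value + 1), Etv5 shRNA over control, with its 95% interval by limma for the 21 tested subunit genes; grey lines use 8 libraries and black lines leave out Etv5 shRNA replicate 3. Filled points passed an adjusted p under 0.05: none over 8 libraries, and Itgb5, Itgb2, Itgb7 and Lamb2 without replicate 3.

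The sequence before the start site is shown for members called lower without replicate 3, since the shRNA targets an ETS factor. Of the 4 members called without replicate 3, RefSeq promoter windows of GRCm38.p6 (300 bases, 250 before the start) matched Itgb5, Itgb7 and Lamb2. Over all members, 23 of 36 matched, with 26 windows. The 250 bases before each start are printed on the gene's strand, with start sites as RefSeq has them. Those of Itgb7 and Lamb2 lie inside the genes as GENCODE draws them. Capitals mark the letters AGGAAG, a loose ETS motif, on either strand (CTTCCT where it lies on the other strand).
Itgb5 (chr16:33829415-33829664, plus strand): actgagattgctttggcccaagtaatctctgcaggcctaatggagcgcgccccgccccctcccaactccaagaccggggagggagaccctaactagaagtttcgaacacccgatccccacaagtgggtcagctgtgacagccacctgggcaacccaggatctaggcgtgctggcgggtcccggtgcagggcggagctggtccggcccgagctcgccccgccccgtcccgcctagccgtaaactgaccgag
Itgb7 (chr15:102231936-102232185, minus strand): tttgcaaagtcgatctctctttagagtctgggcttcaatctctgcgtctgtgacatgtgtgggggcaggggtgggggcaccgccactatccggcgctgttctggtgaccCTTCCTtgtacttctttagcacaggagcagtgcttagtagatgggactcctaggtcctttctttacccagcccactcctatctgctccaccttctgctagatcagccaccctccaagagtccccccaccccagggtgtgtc
Lamb2 (chr9:108479612-108479861, plus strand): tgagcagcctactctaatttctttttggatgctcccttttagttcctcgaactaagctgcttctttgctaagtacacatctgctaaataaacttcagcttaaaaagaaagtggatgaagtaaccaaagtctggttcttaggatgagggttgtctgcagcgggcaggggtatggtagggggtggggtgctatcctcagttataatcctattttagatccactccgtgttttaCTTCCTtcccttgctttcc

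The stricter ETS letters CCGGAAG were in none of these 3 windows of 300 bases and in 8.86% of all 32851 windows. AGGAAG was found in the window of Itgb7 beginning 141 bases before the start and again 1 base after it, past the printed stretch, and in that of Lamb2 beginning 19 bases before the start. It was not in the window of Itgb5, and was in 35.4% of all windows. The AP-1 letters TGANTCA were in none of the 3, and in 7.81% of all. Of the 17 windows of tested members, 1 held CCGGAAG, that of an Itga3 start site, and 9 held AGGAAG. A match here is a match of letters and no more.

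Itgb2, the beta chain of the leukocyte integrins, differed the most. Its coverage value was 9.96, 10.1, 7.87 and 9.52 in control replicates 1 to 4. With the Etv5 shRNA it was 4.85, 4.54, 1.496 and 3.58 in replicates 1 to 4. Every control was above every Etv5 shRNA library, and replicate 3 was the lowest of both groups. Over 8 libraries the log2 fold change was -1.23 (95% interval -1.84 to -0.63, adjusted p 0.147 by limma). Without Etv5 shRNA replicate 3 Itgb2 was 2.17-fold lower by group means, at a log2 fold change of -0.96 (SE 0.119, adjusted p 0.00312 by limma). The call also held with Etv5 shRNA replicate 2 left out in addition (adjusted p 0.0247 by limma). Over 8 libraries Itgb2 was called lower with quantile normalisation (adjusted p 0.0139 by limma, where 0.631% of all genes were called) and with each library's trend with transcript length removed (0.0329, where 0.986% were called). It was not called over 8 libraries with median-of-ratios scaling, pseudocount 0.1, a filter at 1 or none, or the replicate block. Nor was it called when a single library other than Etv5 shRNA replicate 3 was left out.

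The summed level of the leukocyte alpha chains that pair with Itgb2 was near 0, as given above. Of the exon bases of Itgam, 68.7% are shared with Gm49368, a protein-coding gene annotated on the same strand, and 19.7% of those of Itgad with other genes, so the levels of these 2 chains are uncertain. Itgal and Itgax share no exon bases and stayed at or under 0.0244 and 0.0218. Of 10 leukocyte markers, Tyrobp and Cd3e were at 0 in all libraries and Ptprc, which encodes CD45, reached at most 0.046. The 10 markers summed to between 3.05 and 5.02 in controls and between 2.96 and 3.71 with the Etv5 shRNA, mostly from Cd68, a lysosomal protein gene that other cells also express. Itgb2 alone was higher in each control than the 10 markers together. In Etv5 shRNA replicate 3 it was lower than them, at 1.496 against a lowest marker sum of 2.96 in that group. Which cells the Itgb2 RNA came from was not tested. The mm10 position of Itgb2 is chromosome 10, 77530252 to 77565708, plus strand, and no exon of another annotated gene overlaps its exons.

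Itgb7, the beta chain of lymphocyte homing integrins, was at 1.95, 1.72, 1.60 and 1.47 in the controls and 0.937, 0.721, 1.05 and 0.768 with the Etv5 shRNA. The groups did not overlap, and here replicate 3 was the highest of the Etv5 shRNA libraries. Without replicate 3 it was 2.08-fold lower by group means, at a log2 fold change of -0.57 (SE 0.0979, adjusted p 0.0166 by limma). Its alpha partners Itga4 and Itgae summed to at most 0.0589. Its position is chromosome 15, 102215995 to 102231944, minus strand.

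Itgb5, which pairs with Itgav to bind vitronectin, was at 43.5, 40.4, 40.0 and 39.7 in the controls and 30.3, 28.3, 29.6 and 33.5 with the Etv5 shRNA. All 4 Etv5 shRNA libraries were lower, replicate 3 among the others. The log2 fold change was -0.42 over 8 libraries (95% interval -0.68 to -0.16, adjusted p 0.316 by limma) and -0.41 without replicate 3 (SE 0.086, adjusted p 0.0388 by limma). Its partner Itgav was at 23.1 ± 1.55 (SD, n = 3) without replicate 3 against 21.6 ± 3.31 in controls, and was not called. Itgb5 spans chromosome 16, 33829665 to 33949338, plus strand.

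Itgb1, the main beta chain, went the other way in 3 of 4 libraries. It was at 158, 160, 157 and 168 in the controls and at 214, 228, 67.2 and 194 with the Etv5 shRNA. Replicates 1, 2 and 4 stood above every control and replicate 3 far below. Over 8 libraries its log2 fold change was -0.02 (95% interval -0.83 to 0.80). Without replicate 3 it was 0.39 (SE 0.0965), and it did not pass the test (adjusted p 0.0671 by limma). With replicate 3 of both groups left out, a setting added after the data were seen, Itgb1 was called higher at an adjusted p of 0.0215 by limma. That setting called 8.91% of all genes and 6 of the 21 members, the 4 above with Itgb1 higher and Lamb1 lower. Removing the length trend and Etv5 shRNA replicate 3, a setting planned beforehand, also gave 6 members, 1 higher and 5 lower, against 8.13% of all genes.

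The make-up of the beta chains differed accordingly, and these shares are given as a description with no test. Itgb1 held between 63.8% and 69.1% of the summed beta chain values in the controls and between 74.3% and 79.3% in Etv5 shRNA replicates 1, 2 and 4. Replicate 3 was at 57.9%, below every control. Itgb2 held between 3.46% and 4.19% in controls and between 1.29% and 1.74% in all 4 Etv5 shRNA libraries.

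**Figure D3:**
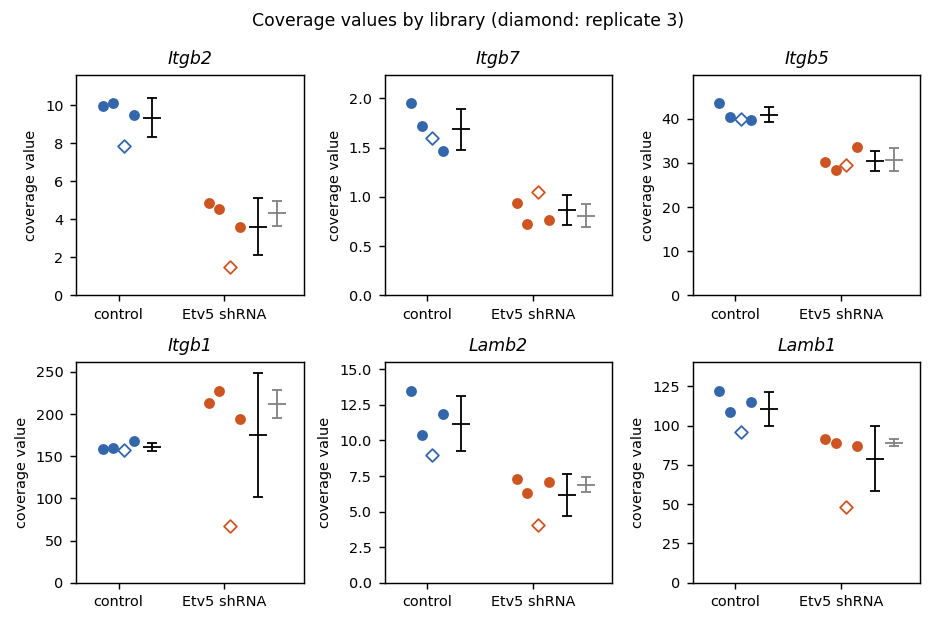
Coverage values of 6 subunit genes by library, with replicates 1 to 4 from left to right in each group and open diamonds for replicate 3; black bars give the mean ± SD of 4 libraries, and grey bars that of the Etv5 shRNA group without replicate 3. Itgb2, Itgb7, Itgb5, Lamb2 and Lamb1 were below every control in all 4 Etv5 shRNA libraries, while Itgb1 was above every control in 3 and lowest in replicate 3.

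Among the laminin chains given here, Lamb2 was called, lower, without replicate 3. Lamb2 was at 13.5, 10.4, 8.99 and 11.8 in the controls and 7.28, 6.31, 4.02 and 7.09 with the Etv5 shRNA. The groups did not overlap. The log2 fold change was -0.78 over 8 libraries (95% interval -1.23 to -0.32, adjusted p 0.282 by limma). Without replicate 3 it was -0.61 (SE 0.128, adjusted p 0.0366 by limma), 1.62-fold lower by group means. Lamb2 spans chromosome 9, 108479736 to 108490530, plus strand.

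The calls of Itgb5, Itgb7 and Lamb2 were lost when Etv5 shRNA replicates 2 and 3 were both left out, where only Itgb2 of the members and 0.827% of all genes were called. Adjusted p-values by limma were then 0.167 for Itgb5, 0.109 for Itgb7 and 0.179 for Lamb2.

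Lamb1, the most abundant laminin beta chain, was at 122, 109, 96.1 and 115 in the controls and 91.3, 88.7, 47.9 and 87.3 with the Etv5 shRNA. The groups did not overlap, and Lamb1 did not pass over 8 libraries (adjusted p 0.678 by limma) or without replicate 3 (log2 fold change -0.30, 95% interval -0.53 to -0.08, adjusted p 0.143). The anchoring laminin chains Lamb3 and Lama3 were not called in either fit. Lamb3 was at 27.3 ± 1.53 (SD, n = 4) and 29.9 ± 4.22 (SD, n = 3) without replicate 3, with a log2 fold change of 0.12 (95% interval -0.12 to 0.36). Lama3 was at 5.64 ± 1.45 and 5.10 ± 0.331, at -0.09 (-0.48 to 0.30).

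Lama5 was at 90.1, 68.7, 39.9 and 82.7 in the controls and at 65.5, 56.2, 19.02 and 64.5 with the Etv5 shRNA. Lamc1 was at 47.8, 37.7, 21.8 and 43.6 and at 43.1, 42.0, 5.68 and 41.4. In both genes the groups overlapped and replicate 3 was the lowest of its group on either side. For Lama5 the overlap came from control replicate 3 alone, as every Etv5 shRNA library was below the other controls. Neither gene was called, and the interval of Lama5 without Etv5 shRNA replicate 3 ran from -0.65 to 0.42. Among the laminin beta chains, Lamb2 held between 6.89% and 8.21% of the summed values in controls and between 5.10% and 5.60% in all Etv5 shRNA libraries, while Lamb3 held between 17.5% and 19.5% in controls and between 20.9% and 34.2% with the Etv5 shRNA. These shares are likewise a description.

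**Figure D4:**
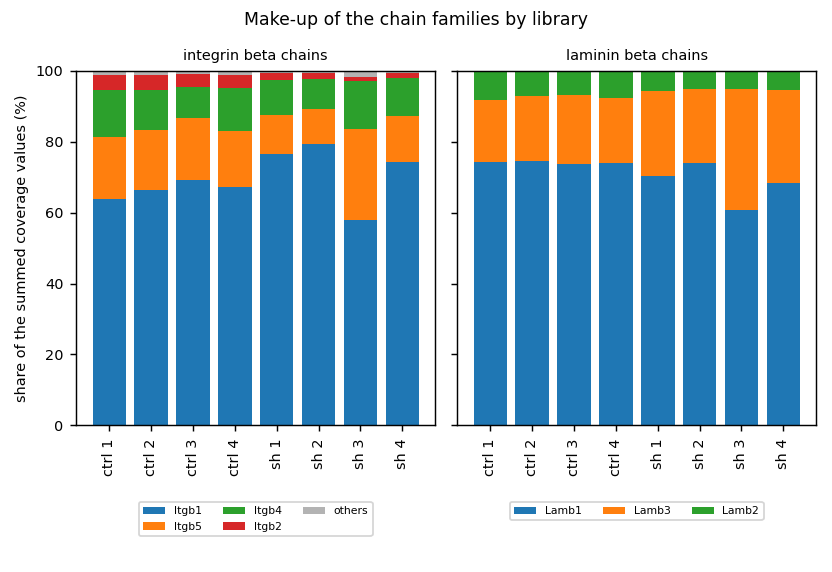
Share (%) of each chain in the summed coverage values of its family in each library, for integrin beta and laminin beta chains; ctrl is the control shRNA and sh the Etv5 shRNA, numbered by replicate. The Itgb2 share was at or under 1.74% in the 4 Etv5 shRNA libraries, and replicate 3 of the Etv5 shRNA group had the lowest Itgb1 share (57.9%) and the highest Lamb3 share (34.2%).

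How far replicate 3 departed from its group differed widely between members. Itga2 was at 20.8, 20.4 and 18.1 in Etv5 shRNA replicates 1, 2 and 4 and at 0.162 in replicate 3, the largest departure of the 21. Lamc1 and Lama3 were 7.42-fold and 7.47-fold lower there than the mean of the other 3. Itgb5, Itga7, Itgb7, Lamb3 and Itgb3, with transcripts of 3282, 4020, 2683, 4867 and 5784 bases, were within 0.18 on the log2(value + 1) scale. On that scale replicate 3 lay below the mean of the other 3 in 19 of 21 members, and it held the lowest of all 8 values in 16 of 21 (76.2%), against 61.7% of all tested genes.

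Across the 21 members this departure had a Pearson correlation of -0.45 with log2 transcript length (Spearman -0.52). Control replicate 3 departed from the other controls in the same direction in 20 of 21 members, with a correlation of -0.66 with length (Spearman -0.82). The departures of these 2 libraries had a correlation of 0.86 with each other. The points are genes that share their libraries, so these correlations are given as a description.

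**Figure D5:**
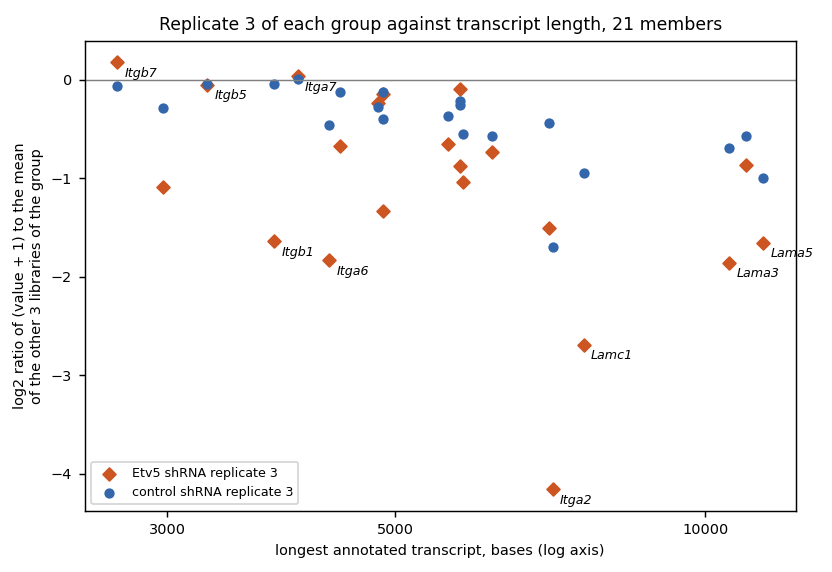
Log2 ratio of (value + 1) in replicate 3 to the mean of the other 3 libraries of its group (vertical axis) against the longest annotated transcript in bases (log axis), for the 21 tested members. Orange diamonds are Etv5 shRNA replicate 3, reaching -4.16 for Itga2, and blue circles control replicate 3, reaching -1.69 for the same gene.

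Genes that work with these chains were counted from lists, 121 genes outside the members, of which 91 were tested. Over 8 libraries 2 of the 91 were called: Ctgf, a matricellular ligand of integrins, was higher and Mmp3, a protease that can cut laminin, was lower, against 0.494% of all genes. When replicate 1, 2 or 4 of either group was left out, none of the 91 was called. Without replicate 3, 9 were called (9.89%, against 3.14% of all genes), 5 higher and 4 lower. The lists were written with earlier results of these data known, so these shares are a description and not a test of the lists. The median log2 fold change of the 91 was -0.21 over 8 libraries and 0.03 without replicate 3.

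The adaptors that link integrins to actin and signalling, such as talin (Tln1), kindlins (Fermt1, Fermt2), integrin-linked kinase (Ilk) and focal adhesion kinase (Ptk2), had 34 tested members and none called in either fit. Their median log2 fold change was -0.20 over 8 libraries and 0.08 without replicate 3. None of 13 tested basement membrane partners, which include Hspg2, Agrn, Col4a1 and Col4a2, and none of 12 other laminin receptors and the enzymes that glycosylate dystroglycan was called in either fit. Their medians without replicate 3 were 0.01 and 0.03.

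Of 8 tested genes for hemidesmosomes and tetraspanins, Cd82, a tetraspanin that associates with integrins, was lower without replicate 3. It was at 23.6, 24.7, 25.98 and 20.7 in the controls and at 14.9, 13.2, 13.1 and 15.8 with the Etv5 shRNA. The log2 fold change was -0.66 without replicate 3 (adjusted p 0.00955 by limma) and -0.70 over 8 libraries (0.073). The groups did not overlap. The other 7 genes were not called.

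Other integrin ligands held most of the called genes. Of 18 tested, 5 were higher without replicate 3 (Ctgf, Cyr61, Thbs1, Postn and Cdh1) and Tgfb1 was lower. Cyr61, a matricellular integrin ligand, was at 22.4, 21.2, 23.0 and 22.3 in the controls and 31.4, 33.2, 15.3 and 36.2 with the Etv5 shRNA. Thbs1, which encodes thrombospondin 1, was at 48.7, 39.9, 32.1 and 47.7 and at 75.5, 74.5, 16.5 and 71.8. Both were above every control in replicates 1, 2 and 4 and below every control in replicate 3, as Itgb1 was. Cdh1 encodes E-cadherin, the ligand of an integrin of Itgae and Itgb7. It was at 38.5 ± 3.49 (SD, n = 4) in controls and 63.3 ± 2.87 (SD, n = 3) without replicate 3. In replicate 3 Cdh1 was at 30.99, below every control, and it was not called over 8 libraries (adjusted p 0.806 by limma). Ctgf was at 30.6, 31.3, 37.4 and 35.5 in the controls and 59.8, 63.1, 51.7 and 62.2 with the Etv5 shRNA, with no overlap (log2 fold change 0.80, adjusted p 0.0442 by limma over 8 libraries). Postn, which encodes periostin, ranged from 0.781 to 0.908 in controls and was at 1.64 ± 0.202 (SD, n = 3) without replicate 3 (adjusted p 0.017 by limma). Replicate 3 was below every control for Postn, at 0.51. Tgfb1, whose latent form binds integrins, was at 37.7 ± 4.43 and 22.8 ± 3.23 (adjusted p 0.0181 by limma), with replicate 3 at 32.99, within the control range. The other 12 tested ligands were not called in either fit.

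Of 6 tested proteases that can cut laminin, Mmp3 was lower in both fits (159 ± 18.7 and 79.2 ± 2.16, SD, n = 4 each). Without replicate 3 Mmp9 was lower as well (log2 fold change -0.55, adjusted p 0.0185 by limma). Its values were 127, 117, 106 and 123 in the controls and 84.4, 75.1, 40.9 and 81.7 with the Etv5 shRNA, with no overlap. Among markers of other cell types, Pdgfra, a receptor gene of fibroblasts and some tumour cells, was lower without replicate 3, at 3.25 ± 0.474 (SD, n = 4) and 1.99 ± 0.138 (SD, n = 3), while the fibroblast genes Dcn and Lum were at 0 in all libraries.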

How the data were processed

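TruSeq RNA libraries from 4T1 cultures were run on a NovaSeq, per the labels' protocols. STAR 2.7.10a and the mm10 build are named in the submitters' processing notes. The authors deposited a signal; per the file headers, columns come from coverage tracks; how coverage was averaged over genes is not given in the sources used here, and the reading as coverage per base comes from the values. Sample titles gave groups and replicate numbers. The scale was log2(value + 1), on which changes of low genes are understated. The filter was a value of 0.5 in 4 libraries or more, which 11731 genes passed; 26 rows with date-like symbols are never named. Leaving out a library kept these genes. The comparison used limma (version 3.58.1, R version 4.3.3) with trended prior variance and no covariate, and Benjamini-Hochberg adjustment over every tested gene. Transcript lengths and coordinates came from GENCODE M21 on mm10. Members and lists were chosen with earlier results of these data known. Members were named if called in either fit, if groups did not overlap, or if a group mean reached 5; genes of the lists got values if called. Alternatives were quantile normalisation, median-of-ratios scaling, pseudocount 0.1, filter at 1 or none, a replicate block, a lowess correction (span 0.3) for transcript length, and omission of single libraries. Protein sequences were not used here, and 1 gene that the symbol rule takes is not reported here.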

Additional observations from a re-analysis of the deposited data

Results flagged for a closer look

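For the 21 tested members, the coverage values of each group were screened with Dixon's 95% critical value for a single distant library; the ratio is that library's gap to its neighbour over the whole range. Of 42 groups, 6 passed, where chance gives 2.1 (about 1 in 20). In all 6 the library was replicate 3 of the Etv5 shRNA group, and it was the lowest of the group. The integrin alpha chains were Itga6 (14.6 in that library, ratio 0.844), Itga2 (0.162, ratio 0.871) and Itga5 (4.07, ratio 0.855). The laminin chains were Lama3 (0.683, ratio 0.871), Lamb1 (47.9, ratio 0.907) and Lamc1 (5.68, ratio 0.952). The cause was not tested.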

How the results depend on the processing

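Counts of called genes moved with the settings. All genes: 37 at pseudocount 0.1, 114 after removal of the length trend, 940 with that and Etv5 shRNA replicate 3 left out, 97 with Etv5 shRNA replicates 2 and 3 left out, 1045 with replicate 3 of both groups left out, and 28 to 368 when a single library was left out, against 58. Members: 1 (Itgb2) with quantile normalisation, with the length trend removed or with Etv5 shRNA replicates 2 and 3 left out, 6 with the length trend removed and Etv5 shRNA replicate 3 left out or with replicate 3 of both groups left out, and 0 to 4 when a single library was left out, where only Etv5 shRNA replicate 3 gave a count above 0. Genes of the lists: 1 with median-of-ratios scaling, a pseudocount of 0.1 or the replicate block, 4 with the length trend removed, 13 with that and Etv5 shRNA replicate 3 left out, 4 with Etv5 shRNA replicates 2 and 3 left out, 15 with replicate 3 of both groups left out, and 0 to 9 when a single library was left out, against 2. The causes were not tested. Scaling moved the all-gene median from -0.11 to 0.02 (median-of-ratios) and 0.01 (quantile).

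Of 376 values of single members under other settings, 326 kept direction and side of the threshold, 17 were called in addition with the direction kept, and 33 changed sign. No member was called over 8 libraries under the main settings, against which these changes are counted, so no sign change could undo a call. Itgb1, called higher with replicate 3 of both groups left out, counts among the sign changes. The planned setting with the length trend and Etv5 shRNA replicate 3 removed also called 1 member higher. Over the fits that left out a single library, values ran from -0.34 to 0.12 for Itga3, -0.45 to 0.19 for Itga6, -0.43 to 0.10 for Itgav, -1.42 to 0.038 for Itga2, -0.27 to 0.13 for Itga8, -0.19 to 0.39 for Itgb1 and -0.70 to 0.21 for Lamc1. Without Etv5 shRNA replicate 3 the log2 fold changes that changed sign were 0.12 for Itga3, 0.19 for Itga6, 0.10 for Itgav, 0.038 for Itga2, 0.13 for Itga8, 0.39 for Itgb1 and 0.21 for Lamc1. With the length trend removed as well they were 0.085 for Itga3, 0.16 for Itga6, 0.0084 for Itgav, 0.059 for Itga8, 0.37 for Itgb1 and 0.11 for Lamc1. With Etv5 shRNA replicates 2 and 3 left out they were 0.19 for Itga3, 0.18 for Itga6, 0.10 for Itgav, 0.016 for Itga2, 0.16 for Itga8, 0.34 for Itgb1, 0.033 for Itgb4 and 0.22 for Lamc1. With replicate 3 of both groups left out they were 0.026 for Itga3, 0.072 for Itga6 and 0.38 for Itgb1. With the length trend removed over 8 libraries they were 0.069 for Itga7, 0.058 for Itga8, 0.12 for Itgb1 and 0.0011 for Itgb3. Median-of-ratios scaling gave 0.060 for Itga7 and 0.15 for Itgb1, quantile normalisation 0.12 for Itga7 and 0.052 for Itga8, and leaving out control replicate 4 gave 0.0024 for Itgb1.

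Same-numbered libraries of the groups had correlations of 0.55, 0.092, 0.79 and 0.51 between their deviations from the group means, so the numbers were not taken to pair them. Etv5 shRNA replicates 1 and 2 correlated best with control replicate 4, and replicate 4 with control replicate 1. With the replicate block 51 genes were called, 0 of them members, and 1 gene of the lists. The settings leaving out 2 libraries were added after the data were seen.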
